A study of Mus musculus with 6 samples.

Results

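The items described here are the long intergenic non-coding RNA (lincRNA) probes of the array that lie far from its RefSeq mRNA probes. A probe was a member if the file named it by a genomic interval and its mm9 midpoint lay more than 20 kb from the midpoint of every probe with an NM_ (RefSeq mRNA) accession on the same chromosome. The rule took 10134 of the 16194 interval-named probes, in 3036 of 4610 stranded regions. Another 5942 probes lay within 20 kb of an NM_ probe and 118 had no mm9 position. No measured value entered the rule. Each probe has 60 bases, and the files call its region a lincRNA on the forward (F) or the reverse (R) strand.

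All 6 arrays hold RNA from G1E-ER-GATA-1 cells. These are Gata1-null mouse erythroid precursors in which an estrogen receptor fusion of GATA-1, silent until ligand is added, replaces the missing factor. Control cells received non-targeting siRNA (3 arrays) and knockdown cells received siRNA against SetD8 (3 arrays), by nucleofection at 0 h and again at 24 h. Every culture was given β-estradiol at 24 h, which releases the fusion protein to act, and was harvested at 48 h. Both groups thus had 24 h of GATA-1 activity, and their treatments differed only in the siRNA. The slides were not shared evenly between the groups, as given below. No array without β-estradiol or without siRNA is analysed here, and 1 line stands for the erythroid cell. Whether arrays of a group are separate cultures is not stated, and p-values cover only array-to-array spread, which may be technical.

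LincRNAs are transcripts of their own that do not overlap coding genes. Many are made by RNA polymerase II, capped, spliced and polyadenylated, and they tend to be less abundant and more restricted to a cell type than mRNAs. Some act on chromatin or as decoys for other RNAs, and for many of the intervals on this array the function is unknown. SetD8 (gene Setd8, current symbol Kmt5a) places the single methyl group on lysine 20 of histone H4, a mark tied to chromatin compaction, genome stability and cell cycle progression.

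The probe sequences on which the results turn are given here 5′ to 3′ from the files, written in lower case, with any AATAAA polyadenylation hexamer in capitals. The first set holds the 13 probes of 8 regions that passed the test among probes detected on every array. Both probes of the forward region chr9:96664617-96683617 lie side by side at chr9:96677789-96677910.
A_30_P01032216: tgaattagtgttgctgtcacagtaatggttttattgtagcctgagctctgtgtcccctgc
A_30_P01030592: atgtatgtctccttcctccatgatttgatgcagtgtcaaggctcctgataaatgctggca
The reverse region chr11:120079199-120130099 has one at chr11:120086860-120086919 and one at chr11:120087116-120087175.
A_30_P01022177: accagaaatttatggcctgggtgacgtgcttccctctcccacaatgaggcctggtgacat
A_30_P01026107: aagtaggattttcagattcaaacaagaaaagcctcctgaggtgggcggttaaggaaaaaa
The forward region chr3:127170996-127201096 has an adjoining pair at chr3:127184302-127184421.
A_30_P01018294: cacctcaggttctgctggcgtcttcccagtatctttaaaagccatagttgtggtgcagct
A_30_P01030464: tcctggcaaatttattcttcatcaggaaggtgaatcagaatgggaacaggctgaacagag
The forward region chr4:149445201-149445902 has a pair at chr4:149445680-149445739 and chr4:149445771-149445830.
A_30_P01032002: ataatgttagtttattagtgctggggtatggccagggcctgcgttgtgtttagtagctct
A_30_P01024344: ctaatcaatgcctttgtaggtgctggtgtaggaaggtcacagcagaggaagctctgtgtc
The forward region chr7:16633756-16634410 has a pair at chr7:16634139-16634198 and chr7:16634202-16634261.
A_30_P01030378: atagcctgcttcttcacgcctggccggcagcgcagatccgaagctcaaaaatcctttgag
A_30_P01022977: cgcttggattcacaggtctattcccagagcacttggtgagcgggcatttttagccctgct
Single probes came from the forward region chr15:61984389-62102500 (at chr15:62074025-62074084), the reverse region chr4:128727331-128735227 (at chr4:128727392-128727451) and the reverse region chr6:4841700-4847400 (at chr6:4843656-4843715), in that order.
A_30_P01025687: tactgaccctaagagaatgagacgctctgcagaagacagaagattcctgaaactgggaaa
A_30_P01025437: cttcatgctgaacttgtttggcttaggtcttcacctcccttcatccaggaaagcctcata
A_30_P01021445: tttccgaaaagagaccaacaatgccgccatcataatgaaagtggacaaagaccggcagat
The second set holds members with the hexamer or with sequence shared with a transcript probe. Whether probes of the first set match a transcript or another place in the genome was not analysed beyond the probes of the array. A_30_P01019086 ends at the last base of its named region (chr7:16634351-16634410) and A_30_P01033475 lies at chr4:128727332-128727391, where its reverse region reaches its 3′ end. Both carry the hexamer and lie beside probes of the first set. A_30_P01026458 (chr11:22686751-22686810) shares 45 bases with a probe for the ribosomal protein gene Rps16, and A_30_P01020357 (chr5:74490275-74490334) is identical over 60 bases to a probe for the lncRNA gene Dancr.
A_30_P01019086: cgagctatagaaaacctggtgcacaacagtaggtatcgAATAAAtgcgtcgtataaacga
A_30_P01033475: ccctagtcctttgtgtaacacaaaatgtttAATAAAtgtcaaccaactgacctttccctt
A_30_P01026458: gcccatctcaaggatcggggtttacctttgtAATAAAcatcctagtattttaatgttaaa
A_30_P01020357: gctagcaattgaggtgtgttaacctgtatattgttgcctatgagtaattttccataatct

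Over the series, the 75th percentile of the processed signal ran from 131 to 257 intensity units and array pairs had correlations of 0.943 to 0.991. Slide 1 held control 1 with SetD8 1 and 2, slide 3 held control 3 with SetD8 3, and slide 2, read by the scanner on another day, held control 2. Setd8 was lower on all 3 SetD8 arrays for both of its probes, by limma −2.08 log2 units (adjusted p = 0.0170) for A_51_P201971 and −1.13 (adjusted p = 0.147) for A_52_P181468. Erythroid markers such as the globin gene Hba-a1, the heme enzyme gene Alas2 and the transcription factor gene Klf1 were detected on all 6 arrays. Of the other lineages, Mpo and Cdh5 were well above background on at most 1 array, while Pf4, Gp9, Itgam, Elane, Csf1r, Cd68 and Cd3e had a probe well above background on each array. Some markers differed without passing the limma test, such as Cd68 (0.73 on A_55_P1961943, adjusted p = 0.0817, no overlap of the groups), Csf1r (0.97 on A_55_P2025078, adjusted p = 0.393), Slc4a1 (−1.21, adjusted p = 0.304) and Hbb-b1 (1.18, adjusted p = 0.455). Another Cd68 probe differed by −0.16 and other Csf1r probes by −0.06 and 0.10, and the Itgam probes differed by 0.02 to 0.11. The part of these markers in the lincRNA values was not tested.

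The members spread over the autosomes and the X chromosome, from 116 on chromosome 19 to 744 on chromosome 1, with 5085 on forward and 5049 on reverse strands. The median distance to an NM_ probe was 62.0 kb, with quartiles at 36.5 and 119 kb. Regions had a median of 3 member probes and at most 10, and 518 regions had 1. The named intervals are long, with a median of 13992.5 bases, so a few probes sample only short stretches of most of them. At 669 of the 2367 loci both strands were probed. Far from NM_ probes is not far from every transcript: 3989 members (39.4%) lay within 20 kb of a probe with another kind of accession, which can be a non-coding RNA, an expressed sequence or a clone of a coding gene, such as the Timm17b clone that shares 60 bases with A_30_P01020720. Distances are to probe midpoints and not to gene ends, and whether a member lies in an intron or exon was not analysed here.

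Most member lincRNA probes were detected on some arrays, and few on all of them. A probe counts as detected where the scanner software marked it well above background. The share of members detected was 54.3%, 23.1% and 79.4% in control cells (replicates 1, 2 and 3, the order of every such series of values here). After SetD8 siRNA it was 61.2%, 50.1% and 54.8%. Control 2 was the lowest and control 3 the highest of all 6 arrays, so the control arrays enclosed the SetD8 arrays. The means were 52.3% ± 28.2 and 55.4% ± 5.58 (SD, n = 3 each), and the difference of 3.09 percentage points was smaller than the spread between controls (exact two-sided permutation p = 0.8, where 0.1 is the smallest possible). Without control 2 the difference was −11.5 points, so its direction rests on that array.

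**Figure D1:**
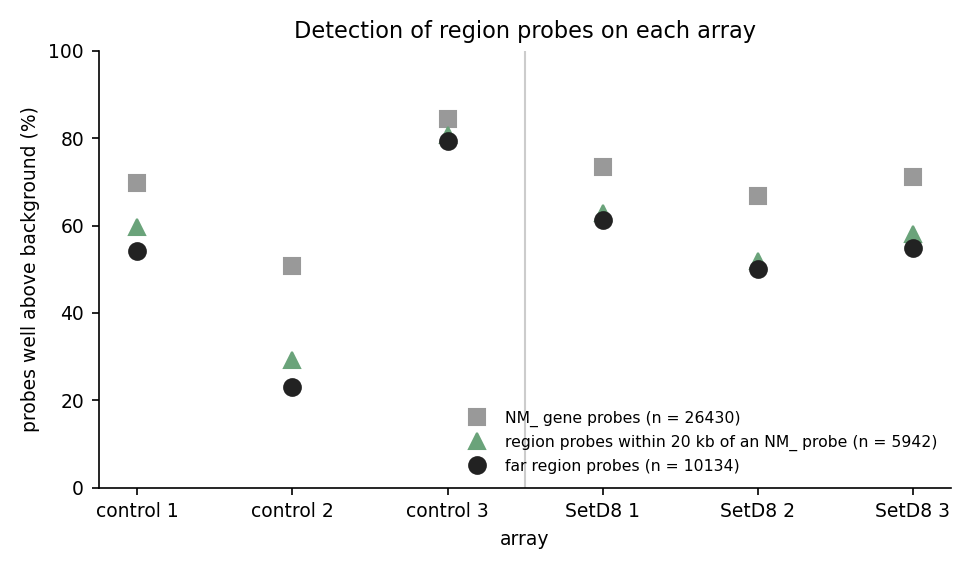
Share of probes well above background (percent, vertical axis) on each of the 6 arrays, for member lincRNA probes, interval-named probes within 20 kb of an NM_ probe, and NM_ probes. The members lie lowest on every array, from 23.1% on control 2 to 79.4% on control 3.

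The members were detected less often than the mRNA probes on the same arrays. NM_ probes were detected at 69.7%, 50.8% and 84.5% in control cells, and at 73.3%, 66.7% and 71.1% after SetD8 siRNA. Members were below NM_ probes on 6 of 6 arrays, with differences of −27.7 to −5.06 percentage points (mean −15.5 ± 7.35 SD, exact sign-flip permutation p = 0.03125, two-sided and the smallest that 6 arrays allow). Interval-named probes within 20 kb of an NM_ probe lay between. The members were below these on 6 of 6 arrays, with differences of −6.25 to −1.31 points (mean −3.28 ± 2.10 SD, the same exact p = 0.03125). Both p-values compare fixed sets of probes read on the same 6 arrays. They do not extend to lincRNA against mRNA probes in general. The gap to mRNA probes was widest on control 2 and narrowest on control 3, the arrays with the lowest and the highest detection.

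In all, 2163 members (21.3%) were detected on all 6 arrays, against 26.3% of the interval-named probes within 20 kb and 49.3% of NM_ probes. At the other end, 1763 members (17.4%) were detected on 0 arrays. Of the 2052 members detected on 5 arrays, 1965 missed only control 2. On the other 5 arrays together, 4128 members (40.7%) were detected. At least 1 probe on all 6 arrays was found in 1235 of the 3036 regions (40.7%), and 118 regions had every probe on 0 arrays.

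Detection of the lincRNA probes went with their base composition and with their distance from mRNA probes. Of members under 35% GC, 4.78% were on all 6 arrays, and of those at 55% GC or more, 43.0%. For NM_ probes the same classes held 27.3% and 57.3%. The median GC content was 45% for members and 41.7% for NM_ probes. By distance, the share of members on all 6 arrays was 24.5% at 20 to 50 kb (n = 4025), 21.6% at 50 to 100 kb (n = 2964), 17.7% at 100 to 200 kb (n = 1863), 18.9% at 200 to 500 kb (n = 997) and 7.37% beyond 500 kb (n = 285). The class beyond 500 kb had the lowest share and also the lowest median GC content, 40%. What each of these contributes to the share was not tested.

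Polyadenylation hexamers were rarer in member probes than in mRNA probes. AATAAA, the main polyadenylation hexamer, stood in 3.81% of member probes and its reverse complement TTTATT in 2.95%. In NM_ probes the shares were 13.2% and 4.27%, and in interval-named probes within 20 kb of one they were 4.16% and 3.11%, close to the members. For the variant hexamer ATTAAA, the shares were 2.42% (TTTAAT 2.07%) in members and 4.49% (TTTAAT 2.67%) in NM_ probes. Each is the share of probes with at least 1 match, on the strand of the probe, with overlapping matches not counted again.

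Probes of the same lincRNA region did not all report the same level of detection. Of the 2518 regions with several member probes, 180 had all of them on all 6 arrays, 916 had some and 1422 had none. If 1 probe of a region was on all 6 arrays, another of the same strand was too in 45.0% of pairs and one of the opposite strand in 29.3%, against 21.7% and 21.8% of these pairs' probes in general. At the 669 loci probed on both strands, 187 had a probe on all 6 arrays on both, 135 on the forward strand only, 143 on the reverse strand only and 204 on neither. Probes of a region share a source and are not replicates of a condition.

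The difference between SetD8 and control arrays was likewise shared along a strand more than across strands. The values from here on are log2 signals after normexp background correction (offset 50) and quantile normalization between arrays, unless another scaling is named. For 1691 pairs of probes on the same strand of a region, both on all 6 arrays, the median gap between their log2 differences was 0.13, the sign was shared in 69.5%, and Pearson's r was 0.52. For 938 pairs on opposite strands of a locus the gap was 0.23, the sign was shared in 53.9%, and r was 0.10. On the same strand r was 0.67 for probe starts under 60 bases apart (n = 29), 0.68 for 60 to 200 bases (n = 800), 0.54 for 200 to 1000 bases (n = 504) and 0.14 beyond 1000 bases (n = 358). Opposite strands had r of 0.03, 0.28, −0.01 and 0.12 over the same spacings (n = 93, 116, 210 and 519). All pairs come from the same 6 arrays and a probe can stand in several pairs, so these are descriptions. Of 489 regions with at least 2 such probes, 125 had every probe higher, 161 every probe lower and 203 a mixture.

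**Figure D2:**
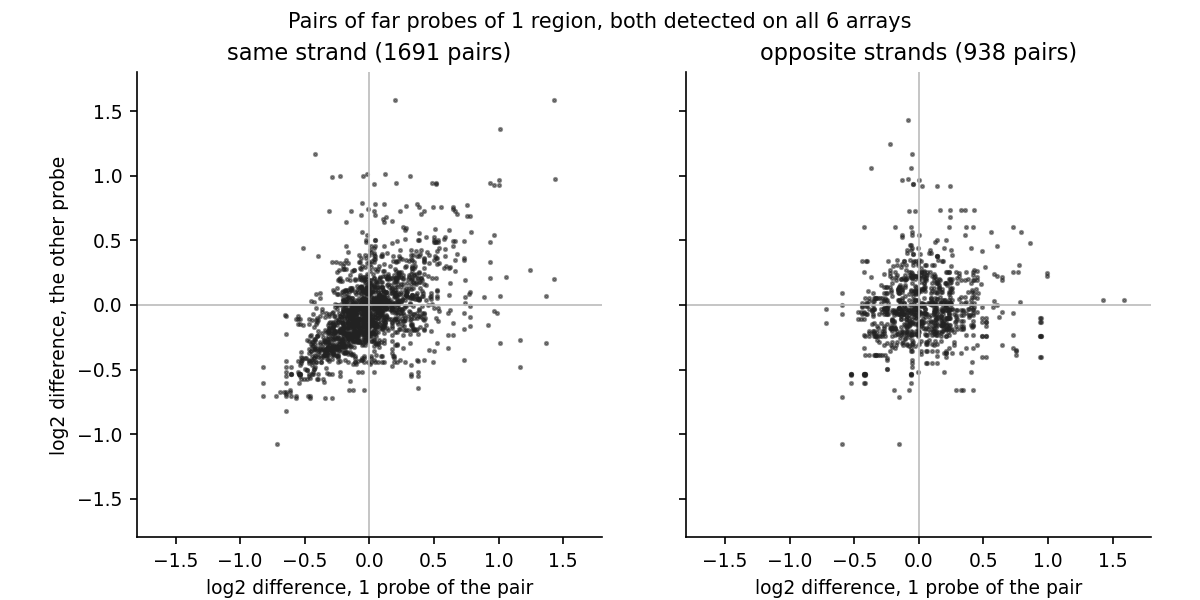
Log2 difference (SetD8 minus control) of one probe against that of another probe, for pairs on the same strand of a region (1691) and on opposite strands of a locus (938), all on all 6 arrays. Same-strand pairs lie nearer the diagonal (r = 0.52) than opposite-strand pairs (r = 0.10).

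Few lincRNA probes passed the test between SetD8 and control cells, and those that did were all higher after SetD8 siRNA. The test was limma on each probe, with Benjamini-Hochberg adjustment over all 30971 probes kept and a threshold of 0.05. A probe was kept if it was detected on all arrays of at least 1 group. That kept 4480 members: 2163 detected on all 6 arrays, 2219 through the SetD8 arrays only and 98 through the control arrays only. Of the 2219, 1965 missed control 2 alone, so the filter took in many members through that array's low detection.

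After normexp and quantile normalization 2 of the 4480 members were called higher and 0 lower. Over all probes tested, 0.297% were called higher and 0.0226% lower, and the members' share of higher calls was 0.0446%. Unadjusted limma p-values were under 0.05 for 196 members (4.38%), against 10.4% of all probes. The groups did not overlap for 226 members with higher SetD8 arrays (5.04%, against 9.17% of all probes) and for 155 with lower ones (3.46%, against 8.67%). The members' median difference was 0.05, with 59.3% above 0, and that of all probes tested was 0.01, with 51.7% above 0. With log2 processed signal minus the 75th percentile of each array, limma called 0 members, and 0 (0%) of all probes in each direction. In that scaling 92 members (2.05%) had an unadjusted p under 0.05, against 2.87% of all probes. The groups then did not overlap for 216 members with higher SetD8 arrays (4.82%, against 4.79% of all probes) and for 120 with lower ones (2.68%, against 3.42%). Its median difference over members was 0.42, against 0.11 over all probes. It was 0.11 over the members detected on all 6 arrays, 0.13 with no filter, −0.09 (−0.41 over all probes) with the median of each array in place of the 75th percentile and −0.38 within slide 3.

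Since a member kept only through the SetD8 arrays was below background on some control array, the test was also run on the 21039 probes detected on all 6 arrays. This was chosen after the data were seen. Of the 2163 members in it, 13 probes of 8 regions were called higher and 0 lower, at adjusted p of 0.00506 to 0.0472. The share of 0.601% compares with 1.32% of all these probes called higher and 0.366% called lower. Unadjusted limma p-values were under 0.05 for 181 of them (8.37%, against 15.9% of all probes). The groups did not overlap for 119 in each direction (5.5%, against 11.3% of all probes upward and 12.1% downward). The median difference of these members was 0.00, with 1082 above 0 and 1081 below, against −0.03 for all probes. Differences past 1.5-fold were found for 74 members upward (3.42%, against 4.38% of all probes) and 22 downward (1.02%, against 2.07%).

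**Figure D3:**
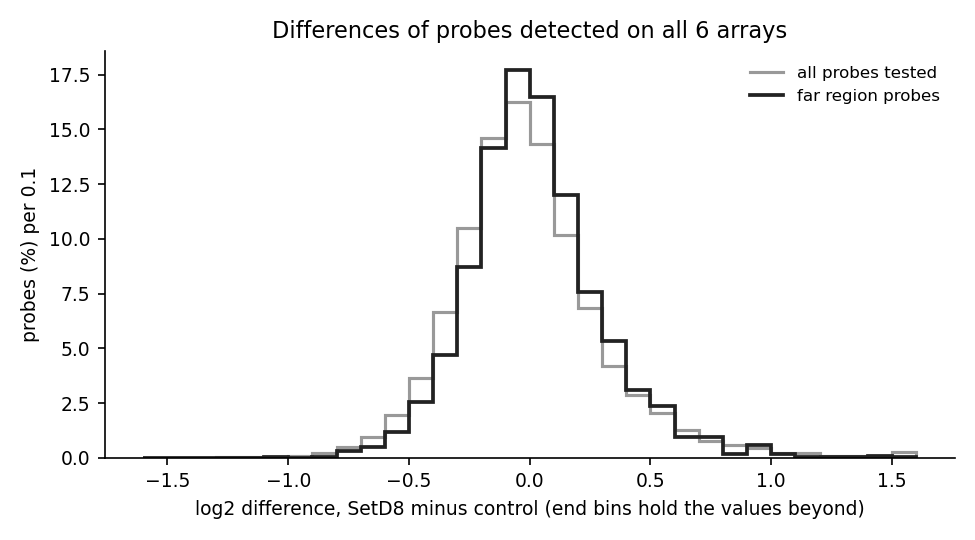
Distribution of the log2 difference (SetD8 minus control) over the 2163 member probes on all 6 arrays and over all 21039 probes on all 6 arrays, as percent of probes per bin. Both centre near 0, with 3.42% of members above 1.5-fold and 1.02% below.

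The 75th percentile scaling on the same 21039 probes called 10 members of 7 regions higher (0.462%) and 0 lower, where 0.651% and 0.0665% of all probes were called. Unadjusted p-values were under 0.05 for 175 members (8.09%, against 7.12%), and the groups did not overlap for 153 upward (7.07%, against 5.67%) and 98 downward (4.53%, against 4.34%). In that fit every probe had the same SE, 0.39, so the calls follow the size of the difference. Called in both scalings were 6 probes of 4 regions: both probes of chr9:96664617-96683617, both of chr3:127170996-127201096, A_30_P01026107 of chr11:120079199-120130099 and A_30_P01024344 of chr4:149445201-149445902. The 4 called in the 75th percentile scaling alone, with differences of 1.44, 1.49, 1.54 and 1.67, were A_30_P01018506 (chr9:113648970-113715170, reverse), A_30_P01023400 (chr14:33923944-34003394, reverse), A_30_P01024063 (chr8:122807653-122823000, reverse) and A_30_P01025511 of chr4:149445201-149445902. After normexp and quantile normalization the groups of the first pair overlapped and those of the last pair did not. A_30_P01023400, for example, gave 10.44, 7.89 and 11.14 in control cells against 10.53, 11.07 and 11.60 after SetD8 siRNA, with control 2 far below the rest.

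After normexp and quantile normalization, the lincRNA region with the largest called difference lay on chromosome 9 (chr9:96664617-96683617, forward). Its probe A_30_P01030592 gave 8.58, 8.69 and 8.44 in control cells against 10.09, 10.24 and 10.15 after SetD8 siRNA. Every SetD8 array was above every control array, and the arrays of each group lay close together. The difference was 1.59 ± 0.13 (SE), 3.01-fold higher, with a limma adjusted p of 0.0170 and a 95% confidence interval of 1.28 to 1.90. The neighbouring probe A_30_P01032216 gave 7.94, 7.99 and 7.25 against 8.96, 9.31 and 9.21. Its groups did not overlap either, and its difference of 1.43 ± 0.23 (SE) had an adjusted p of 0.0783 over all probes kept and 0.0321 among those on all 6 arrays.

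The difference in that region was not uniform along its length. Of the other 7 of its 9 member probes, 4 were tested and differed by −0.16 to 0.58. The called pair lies nearest the 3′ end. The nearest probe of another kind is for C430002N11Rik, a lncRNA in RefSeq on the same strand, 3.1 kb from A_30_P01030592. It gave 9.37, 9.33 and 9.33 in control cells against 10.37, 10.64 and 10.50 after SetD8 siRNA. It was higher by 1.16 ± 0.13 (SE), with a limma adjusted p of 0.0267. The nearest NM_ probe, for Acpl2 (current symbol Pxylp1), a xylose phosphatase of proteoglycan synthesis, is 45.9 kb away, and that probe was detected on 0 arrays.

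**Figure D4:**
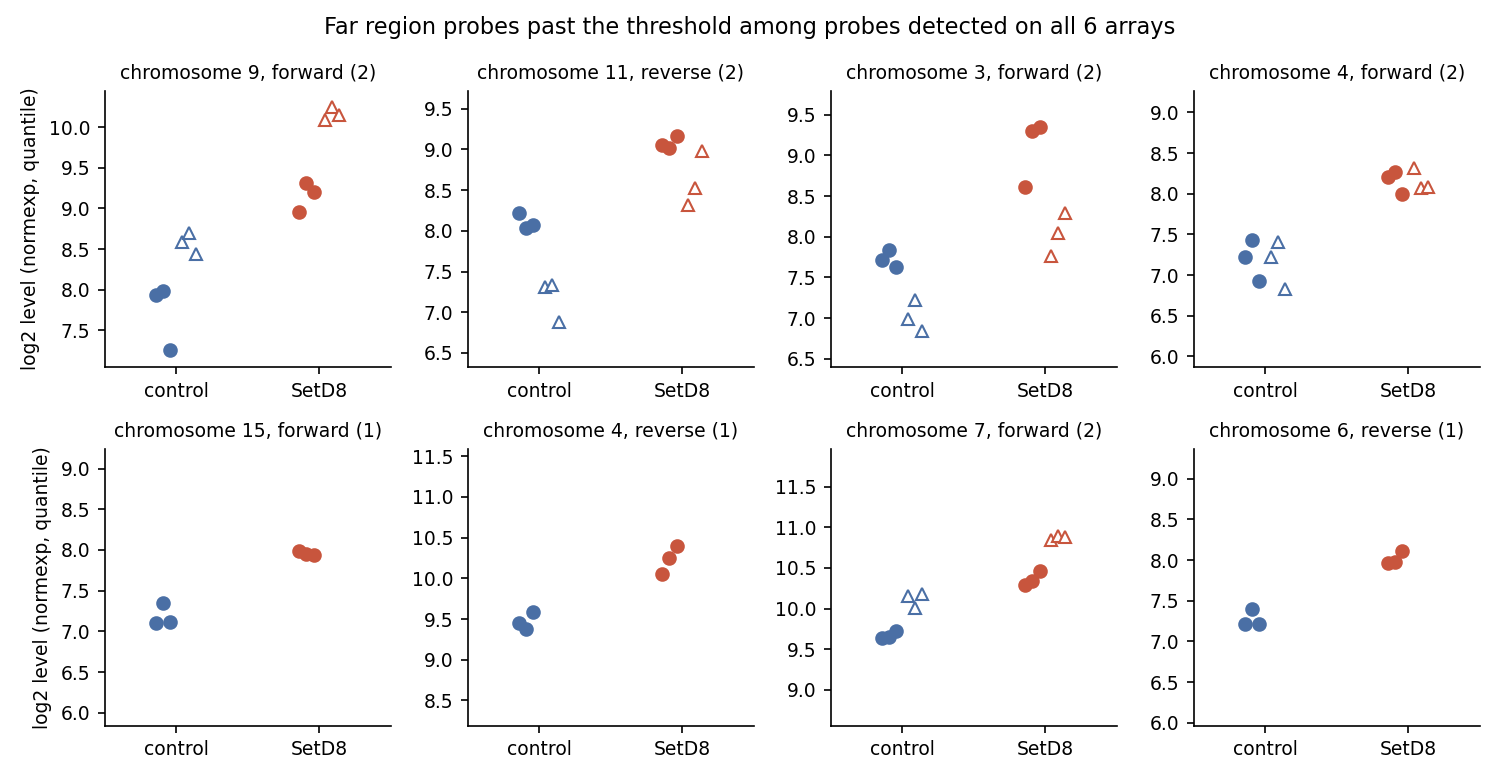
Log2 signal on the 6 arrays (blue, controls 1 to 3; red, SetD8 1 to 3) for the 13 member probes called among probes on all 6 arrays, by region, with filled circles for 1 probe, open triangles for a second and their number in parentheses. No probe's groups overlap, and each vertical axis spans the same range.

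The second region called over all probes kept was chr11:120079199-120130099, reverse. Its probe A_30_P01022177 gave 8.22, 8.03 and 8.07 in control cells against 9.05, 9.01 and 9.17 after SetD8 siRNA. The groups were well apart, and the difference was 0.97 ± 0.13 (SE), 1.96-fold higher (limma adjusted p = 0.0465). A_30_P01026107 gave 7.31, 7.33 and 6.88 against 8.32, 8.53 and 8.98. In the 75th percentile scaling of probes on all 6 arrays this probe had the largest called difference, 2.03. Control 3 was its lowest array and SetD8 3 its highest, and its difference of 1.43 had an adjusted p of 0.0718, or 0.0286 among probes on all 6 arrays. A_30_P01032753, between those, differed by 0.64 with no overlap of the groups (adjusted p = 0.148), and A_30_P01030642 by 0.02. So 3 of the 4 probes tested had higher SetD8 arrays without overlap, where 9.17% of all probes tested did. The region was picked for its calls on these same arrays and its probes share a source, so this count adds no support. A_30_P01032753 and A_30_P01030642 were not detected on all 6 arrays and were kept through 1 group only. The probe of LOC100503888, 4.4 kb away, differed by 0.86 (limma adjusted p = 0.275), and the nearest NM_ gene, Bahcc1 (66.7 kb), was detected on 0 arrays.

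**Figure D5:**
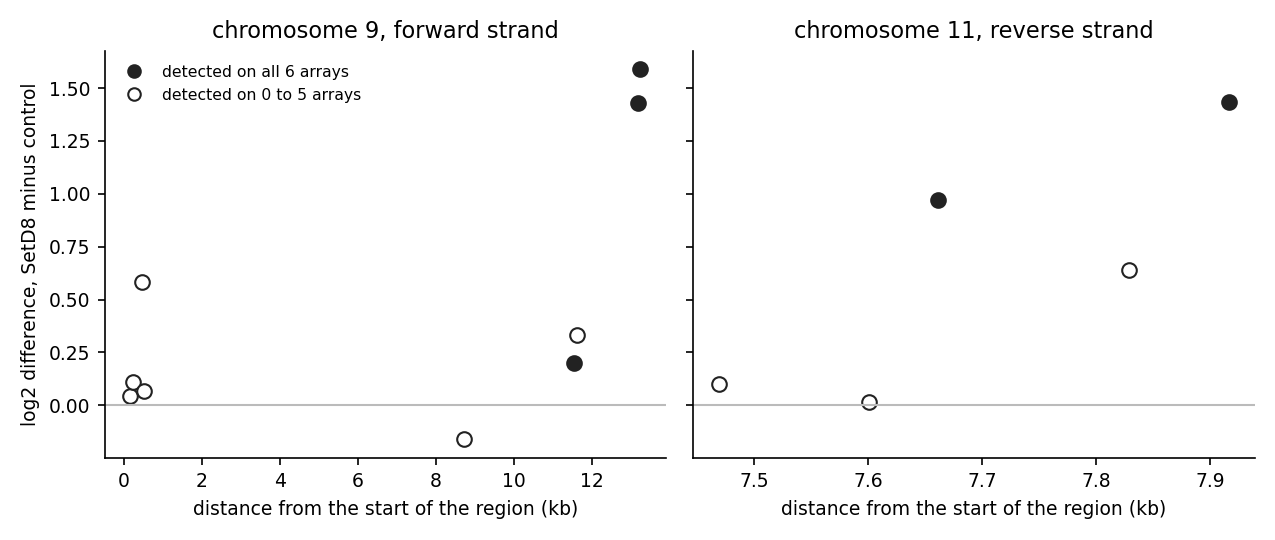
Log2 difference (SetD8 minus control) of every member probe of the chromosome 9 and chromosome 11 regions against its distance in kb from the start of the region, filled where detected on all 6 arrays and open otherwise. In the chromosome 9 region the called pair (1.43 and 1.59) stands at the downstream end, and in the chromosome 11 region the differences run from 0.02 to 1.43.

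Neither of these calls held in all settings. The difference of A_30_P01030592 ran from 1.45 to 1.84 over the alternatives and passed the threshold in 6 of 14 with a p, and that of A_30_P01022177 ran from 0.81 to 1.28 and passed in 3 of 14. Leaving out 1 array at a time left 0 to 2 calls: 0 without control 1, SetD8 1, SetD8 2 or SetD8 3, 1 without control 2 and 2 without control 3. The pair called without control 3 was A_30_P01030592 and A_30_P01032216 (adjusted p = 0.0492), while A_30_P01022177 had a limma adjusted p of 0.0708. With the slide as a block 0 were called. Within slide 1 the differences were 1.58 and 0.81, and within slide 3 they were 1.71 and 1.10.

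The next regions were called only among probes on all 6 arrays and were chosen after their values were seen. In chr3:127170996-127201096 (forward), A_30_P01018294 gave 7.72, 7.84 and 7.62 in control cells against 8.62, 9.30 and 9.35 after SetD8 siRNA. SetD8 1 was the lowest of its group yet above all controls, and the difference was 1.36 ± 0.22 (SE), 2.57-fold higher. The adjoining A_30_P01030464 differed by 1.01. Of the other 3 probes, all upstream, 2 were tested and differed by 0.07 and −0.30. The nearest NM_ gene, Larp7, which encodes a protein of the 7SK small nuclear RNA complex, is 59.3 kb away, and its probes differed by −0.44 and −0.52 without passing the test.

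In chr4:149445201-149445902 (forward), all 3 probes gave like differences within 211 bases. They differed by 0.96 (A_30_P01032002), 1.00 (A_30_P01024344) and 0.93 (A_30_P01025511), and the first pair passed the limma test on all-array probes with adjusted p of 0.0410 and 0.0435. A_30_P01024344 gave 7.23, 7.40 and 6.82 in control cells against 8.31, 8.07 and 8.09 after SetD8 siRNA. Its groups did not overlap, and control 3 was the lowest array. The G protein-coupled receptor gene Gpr157, 33.9 kb away, differed by −0.20.

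In chr7:16633756-16634410 (forward), again all 3 probes gave like values. A_30_P01022977 gave 10.15, 10.01 and 10.18 in control cells against 10.84, 10.89 and 10.88 after SetD8 siRNA. Both groups were tight, and they did not overlap. The 3 differences were 0.69, 0.76 and 0.78, over a span of 272 bases that ends in the hexamer-bearing probe shown above. That last probe, A_30_P01019086, had an adjusted p of 0.0554 among all-array probes. The nearest NM_ gene, Zfp541, is 46.3 kb from A_30_P01022977 and its probe was detected on 1 array.

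In chr15:61984389-62102500 (forward), 1 of 7 probes passed. A_30_P01025687 gave 7.10, 7.35 and 7.11 in control cells against 7.98, 7.95 and 7.94 after SetD8 siRNA. Its SetD8 arrays were nearly equal and above every control, and the difference was 0.77 ± 0.13 (SE), 1.70-fold. The region lies downstream of Myc, the growth-promoting transcription factor gene, whose probe is 253 kb away and differed by −0.42 without passing the test. A probe for the lncRNA Pvt1, which neighbours Myc and is a known p53 target, lies 7.0 kb from A_30_P01025687 on the same strand. It differed by 1.15, with a limma adjusted p of 0.100 over all probes kept and 0.0448 among all-array probes, and a second Pvt1 probe differed by 0.41. The region's other tested probes, all farther along the strand, differed by 0.09 to 0.29.

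The last pair of regions had small differences. In chr4:128727331-128735227 (reverse), A_30_P01025437 gave 9.46, 9.38 and 9.58 in control cells against 10.06, 10.25 and 10.40 after SetD8 siRNA. The groups did not overlap, the difference was 0.76 ± 0.14 (SE), and its flanking probes differed by 0.49 (A_30_P01033475, with overlap) and 0.65 (A_30_P01022707). In chr6:4841700-4847400 (reverse), A_30_P01021445 gave 7.21, 7.40 and 7.22 against 7.97, 7.97 and 8.11. That is 0.74 ± 0.13 (SE) without overlap, whereas the adjoining A_30_P01017482 differed by 0.65 with groups that overlapped. Its control arrays ran from 7.71 to 9.20.

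For each of the 13 called probes the groups did not overlap and the difference was positive within slide 1 and within slide 3. Among the alternatives their log2 differences never turned negative, while their adjusted p passed the threshold in 1 to 6 of 14 settings. The 13 were picked for their difference on these same arrays, so the lack of overlap and the steady sign add no support. Among all 21039 probes, 11.3% had higher SetD8 arrays without overlap. The count of 13 was 0 without SetD8 1 or SetD8 2, 1 without control 1 or SetD8 3, 8 without control 2 and 73 (32 higher, 41 lower) without control 3. Over all 21039 probes the 355 calls became 10 and 0, 26 and 26, 179, and 1199 in the same order. It was 1 with the slide as a block (104 of all probes).

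Several further members lie near probes of well-known lncRNAs or share sequence with them, and 0 of these were called. A_30_P01029746, of a forward region on chromosome 14, is identical over 60 bases to a probe for Mir17hg, the host transcript of a microRNA cluster, and differed by −0.68 (the Mir17hg probe by −0.65). It was chosen after its value was seen, as was A_30_P01028538, which shares 39 bases with a Malat1 probe (named NEAT2 in the files) and differed by −0.35. The reverse region chr19:5801802-5802597 lies 6.3 kb from the probe for Malat1 (NEAT2 in the files), an abundant nuclear lncRNA. Whether the region is part of the Malat1 transcript was not analysed. Its probe A_30_P01031754 gave 17.23, 16.92 and 16.68 in control cells against 17.06, 16.83 and 16.91 after SetD8 siRNA. The groups overlapped and the 3 probes of the region differed by −0.01, −0.27 and −0.05, negative within slide 1 and positive within slide 3.

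The forward region chr5:74487385-74497428 covers Dancr (2700023E23Rik in the files), a lncRNA that hosts small nucleolar RNAs. Of its 10 probes 9 were on all 6 arrays. A_30_P01020357, the one identical to the Dancr probe, gave 8.70, 8.85 and 8.53 in control cells against 8.18, 8.24 and 8.46 after SetD8 siRNA. The groups did not overlap, and the difference was −0.40, against −0.43 for the Dancr probe itself. The 9 probes differed by −0.44 to 0.19 and 0 passed the limma test, with adjusted p of 0.384 to 0.992.

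The reverse region chr17:29183003-29217681 is the member nearest to Cdkn1a, the p53 target that encodes the cell cycle inhibitor p21. Its 5 probes lie 20.6 to 21.1 kb from the NM_ probe, and a probe named lincP21 lies 11.8 kb from the first of them. A_30_P01020960 gave 8.10, 8.21 and 6.89 in control cells against 8.36, 8.53 and 8.49 after SetD8 siRNA. The groups did not overlap, but control 3 stood far below the other controls. All 5 were tested, differed by 0.35 to 0.73 and did not pass (limma adjusted p = 0.387 to 0.769). The differences were 0.22 to 0.49 within slide 1 and −0.18 to 1.61 within slide 3. The lincP21 probe differed by 0.02. Of 3 Cdkn1a probes 2 rose, by 1.37 (A_51_P363947, limma adjusted p = 0.0261) and 1.71 (A_55_P1986282, adjusted p = 0.0279), while the third differed by −0.03.

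The regions with the highest signals had 0 probes called, and some of their probes share sequence with abundant transcripts encoded elsewhere. Signals of different probes also depend on their sequences and are not ranked here. A_30_P01026458, the only probe of the reverse region chr11:22681800-22707775, gave 17.00, 17.00 and 16.90 in control cells against 16.94, 16.99 and 17.01 after SetD8 siRNA. No array stood apart and the groups overlapped. It shares 45 bases with an Rps16 probe whose NM_ accession is placed on chromosome 7. The reverse region chr17:17481706-17482457 lies beside a probe that the files name Oaz1, the gene of ornithine decarboxylase antizyme, and its 3 probes differed by −0.03 to 0.13. The forward region chr6:116123643-116124550 had 3 probes with differences of −0.33 to −0.15. In the forward region chr14:78924115-78938125, 1 of 7 probes was bright (A_30_P01031448, 15.52 to 16.40), and the adjoining probe, A_30_P01028790, gave 6.39 to 7.04.

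In all, 56 members in 53 regions share an exact stretch of at least 20 bases with a transcript probe more than 20 kb away or on another chromosome, 34 of them with an NM_ probe. Of the 56, 32 (57.1%) were on all 6 arrays, against 21.3% of all members. For 30 the differences of both probes were measured, and 26 of these had the same sign, with a median gap of 0.07 log2 units. A further 137 members share such a stretch with a transcript probe within 20 kb. None of the 13 called probes shares one with a transcript probe on the array. The search covered probes only and not whole transcripts, and how much of a member's signal comes from the other transcript was not tested.

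At one locus on chromosome 17 both strands were bright and lower on SetD8 arrays, without passing the test. The 5 reverse probes of chr17:39960567-39992817 differed by −0.60 to −0.53. A_30_P01019815, for example, gave 12.16, 12.08 and 12.38 in control cells against 11.50, 11.63 and 11.89 after SetD8 siRNA. The groups did not overlap for any of the 5, where 12.1% of all probes on all 6 arrays were lower without overlap. The 5 lie within 788 bases and share a source. Both slides gave negative differences for each, and limma adjusted p was 0.273 to 0.501. The 4 forward probes differed by −0.52 to −0.06, and the 3 probes of the forward region chr17:39982023-39983277 inside it by −0.34 to −0.21. The transcript probe beside them carries the clone name BC031453, and the nearest NM_ gene is Pgk2. A_30_P01020015 of chr17:39982023-39983277 shares 57 bases with the BC031453 probe, and the pair differed by −0.21 and −0.24. Which transcript BC031453 belongs to was not analysed. Whether the bright signal at this locus comes from a lincRNA or from another abundant transcript was not tested.

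The other loci with the brightest signal on both strands had 0 probes called. At chr12:73838608-73862621 the brightest forward probe, A_30_P01020570, gave 14.07, 13.71 and 14.49 in control cells against 13.87, 14.57 and 14.29 after SetD8 siRNA, a difference of 0.15 with overlap. The reverse A_30_P01031264 also differed by 0.15. At chr12:119825125-119850750 the forward A_30_P01020276 differed by −0.16 and the reverse A_30_P01029802 by 0.11. The forward probe shares 46 bases with a Gm12034 probe placed on chromosome 11.

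The members with most probes on all 6 arrays show how the slides bear on a value. All 10 probes of the forward region chr4:129497990-129515290, within 26.7 kb of the phosphatase gene Ptp4a2, differed by −0.42 to −0.26. They were −0.69 to −0.50 within slide 1 and 0.14 to 0.52 within slide 3, and 0 passed the test. The 9 all-array probes of the reverse region chr6:116092274-116144199 differed by −0.24 to 0.20 and 0 passed either. Probes of a region share the same 6 arrays and do not replicate the comparison.

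At the 20 kb limit, 1 probe on each side is given. Just inside, A_30_P01020403 of the reverse region chr13:98038568-98068079 lay 20002 bases from the nearest Enc1 probe and gave 6.93, 7.44 and 6.44 in control cells against 7.03, 6.81 and 6.70 after SetD8 siRNA. Just outside, A_30_P01026908 of the forward region chr6:11994002-11997859, beside Phf14, was detected on 0 arrays. The farthest members lay 2097 kb from an NM_ probe, in the forward region chr1:115829055-115854155 in the gene desert beside Dsel, where 1 of 7 probes was on all 6 arrays and differed by 0.04. At limits of 10, 50 and 100 kb the rule takes 12655, 6109 and 3145 probes.

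The differences of member lincRNAs bore little relation to those of their nearest mRNA. Over 717 regions with both measured on all 6 arrays, the region's mean difference and that of its nearest NM_ gene had a Pearson r of −0.01 (0.04 for the 352 regions at 20 to 50 kb). For 591 regions of interval-named probes within 20 kb of an NM_ probe, r was 0.24. The regions share arrays and normalization, and this is a description.

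Few members have a p53 target or an erythroid gene as nearest NM_ gene. Of 35 genes on a list of p53, its targets and related genes, 5 (Btg2, Cdkn1a, Gadd45a, Plk2 and Trp53inp1) were nearest to 10 regions with 31 probes. Of these probes 15 were tested and 0 called, with a median difference of 0.09 and a range of −0.13 to 0.73, and 5 had groups that did not overlap, all higher after SetD8 siRNA, where 9.17% of all probes were. Of these 5, 4 are probes of chr17:29183003-29217681 and share a source. Only 6 of the 15 were on all 6 arrays, and the rest were kept through 1 group alone. Over all members, 2219 were kept through the SetD8 arrays only and 98 through the control arrays only. The filter can thus raise this median and the count of 5. At the Gadd45a locus, chr6:67052066-67119366, the all-array probes were A_30_P01027254 (−0.05, reverse) and A_30_P01032718 (−0.08, forward). Of 38 erythroid genes listed, 3, Zfpm1 among them, were nearest to 4 regions with 12 probes. Of these 3 were tested and 0 called, with a median difference of 0.23 that rests on the same filter. The 1 on all 6 arrays was A_30_P01018632 of the forward region chr8:124713947-124714299, which lies 147 kb from the probe of Zfpm1, the gene of the GATA-1 cofactor FOG-1. It gave 7.51, 7.34 and 7.23 in control cells against 7.26, 7.87 and 7.62 after SetD8 siRNA, with overlap between the groups.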

How the data were processed

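The authors deposited linear Cy3 spot intensities, the single-channel scanner output of Feature Extraction (version 10.7.3.1 per the file headers), with probe coordinates on mm9. Their series matrix repeats these intensities, within 0.006 for 100% of spots. The submitters' processing notes list limma without a version, and no source used here says how arrays were normalized against each other. Of 62976 spots per array 59305 were not controls. Outlier spots (139 to 176 per array) were dropped and replicate spots averaged, leaving 55681 probes.

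Background was corrected with normexp at an offset of 50, from mean and local median background signals, before quantile normalization. The other scaling was log2 processed signal minus the array's 75th percentile. The offset shrinks fold changes of dim probes. The test of SetD8 against control siRNA was limma's moderated test (version 3.58.1 in R 4.3.3, two-sided), adjusted by Benjamini-Hochberg over every probe kept. Shares per array were tested by exact permutation in Python 3.11.15 with scipy 1.17.1. By rule, the text names calls without overlap between groups, the 6 brightest regions, the 3 regions with most probes on all arrays, the 3 brightest with both strands, those at the 20 kb limit and the farthest, and those nearest to a p53 or erythroid gene. Other named probes were picked with their values in view. The members, lists and settings were chosen with earlier results of these data known. The planned difference in level between the strands of a region was not run, since levels of different probes are not set against each other, and detection counts by strand are given instead. Of 45 neighbouring names looked up in RefSeq's gene table for GRCm38.p6, which served for names only, 31 matched. On simulated data of 30952 probes for the normexp and quantile comparison, with 200 changed, limma recovered 37% of those changed 2-fold and 71% of those changed 4-fold, with 3 false calls. The simulated noise was independent between probes, with no shift shared across an array. In the real data the members' median residual SD was 0.28, against 0.24 for all probes tested, so these rates need not hold for members. The number of arrays limits the precision. A few marker genes are not reported here.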

Additional observations from a re-analysis of the deposited data

How the results depend on the processing

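With normexp and quantile normalization, 2 members were called, of 99 probes in all. The count was 1 at an offset of 16, 0 with the 75th percentile in place of quantile normalization, 0 with quantile normalization of the processed signal and 13 among probes on all 6 arrays. It was 9 (of 795 over all probes) with trend and robust moderation, 0 with the slide as a block, 1 for members over 50 kb and 0 for those over 100 kb from an NM_ probe, 0 for members far from every other kind of probe, and 0 with regions in place of probes. Without control 2 and on probes detected on the other 5 arrays it was 1, and leaving out each array in turn gave 0 to 2. A filter of 3 arrays, no filter, a 10 kb limit and a 1.5-fold threshold left 2. Array weights gave 740 calls (371 higher, 369 lower, of 7199 over all probes), or 1466 (996 higher, 470 lower, of 10995) in the 75th percentile scaling, but put nearly all control weight on control 1 and could not be fitted to convergence. The 75th percentile scaling, with 0 calls, gave 10 among probes on all 6 arrays, 12 (7 higher, 5 lower) with the slide as a block, and 0 without any single array. The 13 calls among probes on all 6 arrays became 6 at an offset of 16, 4 with normexp and the 75th percentile, 2 with quantile normalization of the processed signal, 1 with the slide as a block, and 0 to 73 without each array.

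The members' median difference of 0.05 became 0.13 and 0.18 with those 2 changes of normalization, and 0.01 to 0.11 without each array. The median of 0.42 in the 75th percentile scaling was 0.11 for members on all 6 arrays, 0.13 with no filter, −0.09 with array medians, −0.38 within slide 3 and −0.07 to 0.81 without each array. The 3.09-point difference in detection was −11.5 without control 2, 16.7 without control 3 and between these without the others. For the 22 single probes followed, 13 of them picked for their difference on these same arrays, 0 changed sign in any setting. The causes were not tested.

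The replicate number as a block left 0 calls with normexp and quantile normalization, also among probes on all 6 arrays. Same-numbered arrays deviated together for number 1 only (correlations of 0.15, −0.28 and −0.29), so the numbers were not taken as pairs. Control 2, with 23.1% of members detected, limits what can be measured in dim lincRNAs: 1965 members missed that array alone.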
